A study of Homo sapiens with 12 samples.

Results

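Desmosomes are the junctions that tie the keratin cytoskeletons of neighboring epithelial cells together. The 10 genes described here encode their main proteins. They were chosen by symbol from the 39368 symbols counted in each cell line and are the desmogleins DSG1, DSG2 and DSG3, the desmocollins DSC2 and DSC3, the plakophilins PKP1, PKP2 and PKP3, plakoglobin (JUP) and desmoplakin (DSP). RNA-seq was performed on 12 libraries from CAL27 and HSC3, which are HPV-negative head and neck squamous cell carcinoma (HNSCC) lines obtained from ATCC. All of the cells carried tet-MUC1shRNA, an shRNA against the mucin gene MUC1 that is expressed when doxycycline (DOX) is added, and transduced cells had been selected in puromycin. In each line, 3 libraries came from cells treated with vehicle (0.1% DMSO) and 3 from cells given DOX at 500 ng/ml, and treatment lasted 7 days throughout. The study asked which genes change when MUC1 is silenced. No library from DOX-treated cells with a control shRNA was analysed here, so effects of DOX itself cannot be told apart from those of the shRNA, and 1 shRNA stands for the loss of MUC1.

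The extracellular parts of desmogleins and desmocollins, which are cadherins, bind each other across the gap between cells. Their tails are held by the armadillo proteins plakoglobin and plakophilin, which connect them to desmoplakin, and desmoplakin in turn binds the keratin filaments. Squamous epithelia change the isoforms as they differentiate, with DSG3 and DSC3 strongest in the basal layers and DSG1 and PKP1 in the layers above, whereas DSG2, DSC2 and PKP2 are the isoforms of simple epithelia and heart muscle.

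Counts summed to 89730914 to 169065103 per library. Levels are given as CPM, the counts of a gene scaled to a fixed library size by TMM over the 12 libraries together, and ± gives the SD over 3 libraries. MUC1 was at 53.1 to 58.4 CPM in CAL27 cells with vehicle and at 2.76 to 3.25 CPM with DOX. In HSC3 cells MUC1 was at 1.64 to 1.97 CPM and at 0.132 to 0.310 CPM, so the target was lower with DOX in each line (log2 fold change -4.21 in CAL27, -2.88 in HSC3). HSC3 cells with vehicle had less MUC1 than CAL27 cells with DOX, and with vehicle the log2 fold change of HSC3 over CAL27 cells was -4.99. HSC3 DOX replicate 1 stood apart, with the largest total, the fewest genes with a count (19128) and an estimated 13.5 counts for each RNA molecule sampled. This estimate was 7.33 and 9.41 in the other HSC3 DOX libraries, 3.60 to 5.82 in HSC3 vehicle libraries and 1.97 to 2.78 in CAL27 libraries, so it moved with DOX in HSC3 cells. HSC3 responses to DOX of the desmosomal genes except DSG1 are therefore also given without replicate 1. Class shares, ratios and gene lists include it. Squamous markers fixed for the check (KRT5, KRT14, TP63, CDH1 and EPCAM) were detected in all libraries. Their summed level was 5483 to 5701 CPM with vehicle and 2659 to 2844 CPM with DOX in CAL27 cells, and 4939 to 5532 CPM and 2205 to 2534 CPM in HSC3 cells. Within this list KRT5, KRT14 and TP63 fell, EPCAM rose and CDH1 did not pass the test in each line. Markers of fibroblasts (6 genes), leukocytes (5 genes) and endothelial cells (4 genes) summed to at most 14.1, 5.29 and 15.3 CPM in any library. In CAL27 cells the fibroblast sum was 13.4 to 14.1 CPM with vehicle and 10.2 to 10.6 CPM with DOX, and the endothelial sum 14.9 to 15.3 CPM and 8.82 to 12.2 CPM. The leukocyte sum there was 4.80 to 5.29 CPM and 3.68 to 4.62 CPM. In CAL27 cells most of the endothelial sum was 1 gene, CDH5 (mean 14.6 CPM with vehicle and 9.97 CPM with DOX). Most of the leukocyte sum was CD14 (mean 4.70 and 3.87 CPM). In HSC3 cells the fibroblast sum was 4.21 to 4.999 CPM with vehicle and 5.97 to 9.34 CPM with DOX. COL3A1 had no more than 3 counts in any of the 12 libraries. The part of these markers in the results was not tested.

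Differences were tested by edgeR's quasi-likelihood test within each line. A gene passed if its p, adjusted over the whole table by the Benjamini-Hochberg method, was under 0.05, and rose or fell refers to genes that passed. In CAL27 cells, 9 of the 10 desmosomal genes had enough counts to be tested. Of these, 6 fell with DOX (PKP1, DSC3, DSG3, DSP, JUP and DSC2) and 2 rose (PKP2 and PKP3), and DSG2 did not pass. Over all 19239 genes tested in CAL27 cells, 21.8% fell and 22.6% rose. In HSC3 cells all 10 were tested, 4 fell (PKP1, DSG2, DSC3 and DSG3) and 1 rose (PKP2), against 15.4% and 13.0% of 18021 genes. PKP1, DSC3 and DSG3 thus fell and PKP2 rose in both lines. The median log2 fold change of the genes tested was -0.48 in CAL27 and -0.11 in HSC3 cells, and over all genes it was -0.01 in each. Without HSC3 DOX replicate 1, 5 fell and 1 rose, DSP being the additional gene. The calls over all genes moved as well, with 2049 to 3601 lower and 1514 to 3268 higher over the fits that each left out 1 HSC3 library. In bulk RNA a change in every cell and a change in the share of cells that express a gene cannot be told apart.

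**Figure D1:**
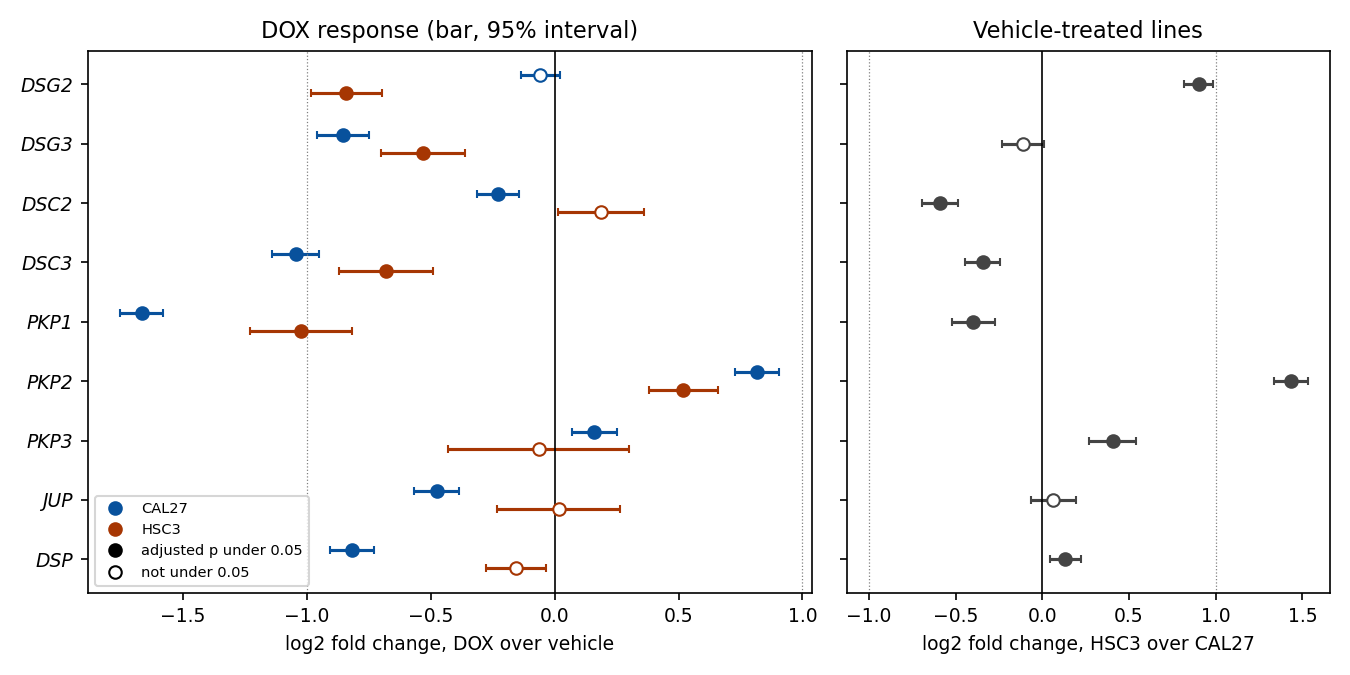
Log2 fold changes (x axis) of 9 desmosomal genes (y axis) with 95% intervals from edgeR's fits, for DOX over vehicle in CAL27 and HSC3 cells (left) and for HSC3 over CAL27 cells with vehicle (right). Filled points have an adjusted p under 0.05, dotted lines mark a 2-fold difference, and DSG1 is left out because it was barely counted; PKP1, DSC3 and DSG3 lie to the left of 0 and PKP2 to the right in both lines, and the DSG2 response to DOX is filled in HSC3 but not in CAL27 cells.

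The cadherin genes stand together on chromosome 18, where 7 desmocollin and desmoglein genes occupy 559.6 kb (chr18:30989365-31549008, GRCh38, GENCODE annotation). DSC3 (chr18:30989365-31042815) and DSC2 (chr18:31058840-31102522) are on the minus strand. DSG1 (chr18:31318160-31359246), DSG3 (chr18:31447741-31478702) and DSG2 (chr18:31498177-31549008) are on the plus strand. DSG3 and DSG2 are neighbors, and in CAL27 cells DSG3 fell while DSG2 did not pass. The sequences just upstream of the 3 genes that fell in both lines are shown here to let their start regions be compared. They are the part of RefSeq's window (GRCh38.p14, 250 bases before to 50 after its start site) that precedes the first base of the gene in the GENCODE annotation, written 5′ to 3′ on the strand of the gene. Capitals mark the only match in these stretches to the motifs searched, a p63 half-site in DSG3. The stretches are chr18:31447491-31447740 for DSG3, chr18:31042816-31042992 for DSC3 and chr1:201283256-201283451 for PKP1.
DSG3: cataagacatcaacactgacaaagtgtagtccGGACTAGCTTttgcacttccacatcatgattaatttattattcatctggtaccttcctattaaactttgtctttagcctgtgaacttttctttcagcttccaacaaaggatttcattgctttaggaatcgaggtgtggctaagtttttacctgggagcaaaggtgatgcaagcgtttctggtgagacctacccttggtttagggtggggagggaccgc
DSC3: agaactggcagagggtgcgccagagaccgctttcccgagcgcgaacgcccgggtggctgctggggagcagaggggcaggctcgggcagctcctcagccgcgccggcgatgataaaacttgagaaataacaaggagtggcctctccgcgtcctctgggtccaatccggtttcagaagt
PKP1: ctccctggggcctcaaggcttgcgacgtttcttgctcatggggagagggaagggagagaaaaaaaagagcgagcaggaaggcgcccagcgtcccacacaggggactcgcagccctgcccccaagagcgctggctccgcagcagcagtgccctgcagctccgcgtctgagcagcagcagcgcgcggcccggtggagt

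Windows of 300 bases were found for 8 of the 10 genes, and PKP2 and PKP3 had no entry. A p63 half-site was found in the windows of DSG3 (218 bases before the start) and DSC3 (57 bases before its RefSeq start, within the first exon region of GENCODE), against 6.63% of 35116 promoter windows. A STAT site of the form TTCNNNGAA was found in a window of DSC2 (63 bases before its RefSeq start), against 7.66% of all windows. That window (chr18:31101211-31101510) lies inside the gene as GENCODE annotates it. None of the 8 genes had the core of the interferon-stimulated response element (3.57% of windows), the AP-1 site TGANTCA (7.71%) or the Grainyhead site AACCGGTT (0.134%). Both strands were searched, and a match describes letters, not binding.

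The desmogleins responded differently in CAL27 and HSC3 cells. DSG3, the basal desmoglein that is the target of pemphigus vulgaris antibodies, was at 162.0, 151.6 and 165.2 CPM in CAL27 cells with vehicle and at 92.9, 92.0 and 80.7 CPM with DOX. The HSC3 libraries had 136.9, 145.2 and 160.3 CPM with vehicle and 110.4, 96.6 and 100.03 CPM with DOX. All DOX libraries were below all vehicle libraries of their line. DSG3 fell by 0.85 ± 0.05 on the log2 scale (SE, adjusted p = 1.53e-10) in CAL27 and by 0.53 ± 0.08 (adjusted p = 3.98e-04) in HSC3 cells, and by 0.58 in HSC3 cells without DOX replicate 1. The difference between these responses, tested as the interaction of line and DOX over all 12 libraries, was 0.32 ± 0.10 (adjusted p = 0.0372), but it no longer passed without CAL27 vehicle replicate 1 or 3, CAL27 DOX library 6 or HSC3 vehicle replicate 1 or 2 (adjusted p 0.0678 to 0.0856).

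DSG2, which is made in nearly all epithelia, showed another pattern. It was at 213.1, 200.3 and 199.5 CPM with vehicle and at 197.9, 193.6 and 198.4 CPM with DOX in CAL27 cells. The DOX libraries were just below the vehicle libraries, and the log2 fold change of -0.06 (95% interval -0.14 to 0.02) did not pass (edgeR adjusted p = 0.234). In HSC3 cells DSG2 was at 376.4, 378.7 and 387.4 CPM with vehicle and at 232.2, 206.9 and 200.6 CPM with DOX. All DOX libraries were far below the vehicle libraries and close to the level of CAL27 cells. DSG2 fell by 0.84 ± 0.06 on the log2 scale (SE, adjusted p = 4.76e-06), or 1.79-fold, and by 0.90 without DOX replicate 1. The response differed between the lines by -0.78 ± 0.08 (interaction, adjusted p = 5.13e-06).

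DSG1, the desmoglein of the upper epidermal layers, was barely counted. CAL27 cells had 6, 13 and 17 counts of it with vehicle and 0, 4 and 0 after DOX, which was too few to be tested in the fit of all CAL27 libraries. With 1 library left out at a time, it was tested and fell in at least 1 fit, on these few counts. HSC3 cells had 59, 12 and 25 counts with vehicle against 78, 67 and 56 after DOX, and the groups overlapped in CPM (log2 fold change 0.76, 95% interval -0.53 to 2.05, edgeR adjusted p = 0.398). A count of 0 allows up to 3 counts, and with several counts per molecule such numbers stand for few molecules. The remaining desmosomal cadherins, DSG4 and DSC1, were as scarce, with DSG4 too low to be tested and DSC1 not passing in either line (log2 fold change -0.22, edgeR adjusted p = 0.676, in CAL27; 1.40, adjusted p = 0.0810, in HSC3).

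**Figure D2:**
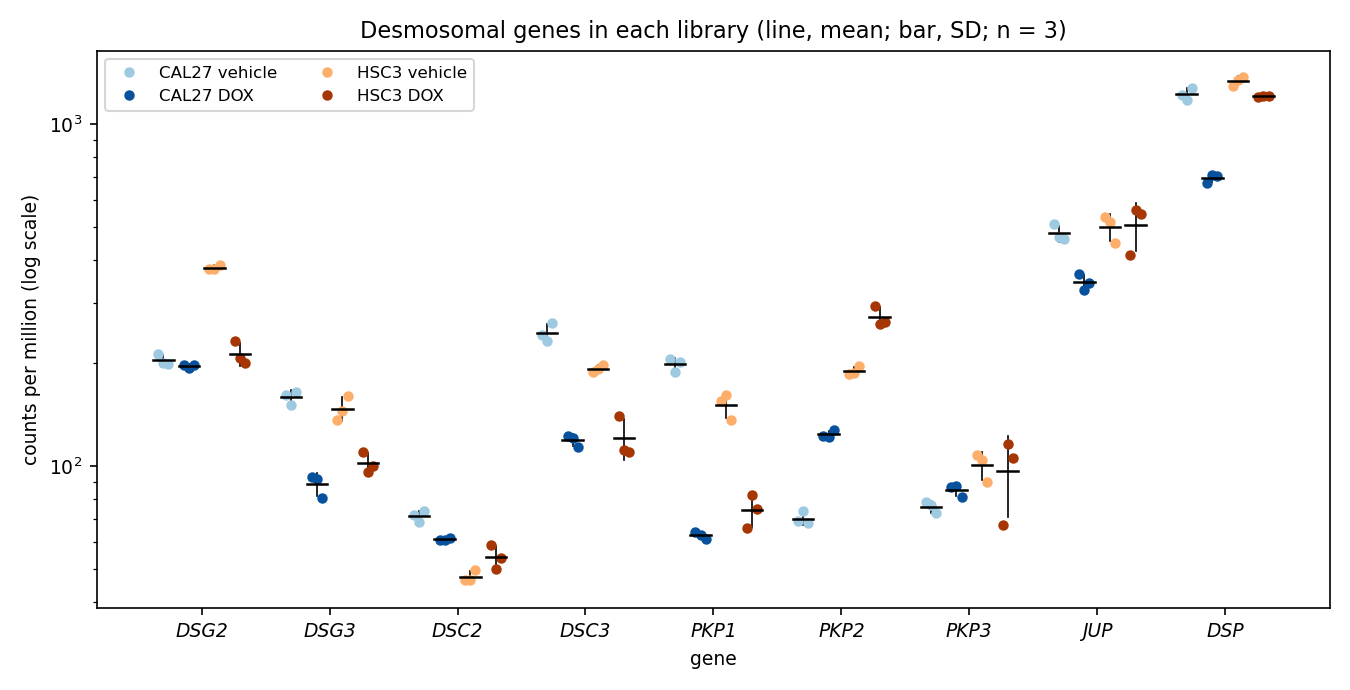
Level of 9 desmosomal genes in each of the 12 libraries, in CPM on a log axis (y axis), by gene (x axis) and group. Each point is 1 library, horizontal lines are means and vertical bars are SD (n = 3); PKP1, DSC3 and DSG3 are lower and PKP2 is higher with DOX in both lines, and the low HSC3 DOX points of PKP3 and JUP are both replicate 1.

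Desmocollins were represented mainly by DSC3, the isoform of stratified epithelia. It was at 242.2, 231.9 and 262.6 CPM with vehicle and at 123.0, 120.9 and 114.0 CPM with DOX in CAL27 cells. HSC3 cells had DSC3 at 189.0, 192.7 and 197.6 CPM with vehicle and at 140.0, 111.9 and 110.5 CPM with DOX, with replicate 1 the highest of the DOX libraries. The groups did not overlap in either line. DSC3 fell by 1.04 ± 0.05 on the log2 scale (SE, edgeR adjusted p = 5.47e-13) in CAL27 and by 0.68 ± 0.09 (adjusted p = 1.58e-04) in HSC3 cells, and by 0.80 in HSC3 cells without DOX replicate 1. The interaction of 0.36 ± 0.11 passed (adjusted p = 0.0291) but was lost without CAL27 vehicle replicate 3, CAL27 DOX library 6 or HSC3 vehicle replicate 1 or 2 (adjusted p 0.0604 to 0.0783).

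DSC2, the desmocollin that is found in all desmosome-bearing tissues, was the scarcest of the well-counted genes for its length. It was at 72.0, 68.9 and 73.9 CPM with vehicle and at 60.9, 61.0 and 61.7 CPM with DOX in CAL27 cells, where the groups did not overlap. Its HSC3 values were 46.6, 46.4 and 49.6 CPM with vehicle and 58.8, 50.2 and 54.0 CPM with DOX, each DOX library being higher than each vehicle library. DSC2 fell in CAL27 cells, by 0.23 ± 0.04 on the log2 scale (SE, edgeR adjusted p = 9.60e-05). In HSC3 cells the log2 fold change of 0.19 (95% interval 0.01 to 0.36) did not pass (adjusted p = 0.107). It was 0.13 without DOX replicate 1 (adjusted p = 0.144), and it passed in 1 fit over all 12 libraries (adjusted p = 0.0241). The responses differed by 0.42 ± 0.09 (interaction, adjusted p = 0.00267).

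Plakophilins moved in opposite directions. PKP1 (chr1:201283452-201332993, plus strand), which binds desmoplakin and is most abundant in the suprabasal layers of stratified epithelia, was at 206.2, 188.8 and 201.9 CPM with vehicle and at 64.2, 62.95 and 61.2 CPM with DOX in CAL27 cells. HSC3 libraries had PKP1 at 154.7, 161.3 and 136.6 CPM with vehicle and at 66.1, 82.2 and 75.1 CPM with DOX. The lowest vehicle library was above the highest DOX library by a wide margin in each line. PKP1 fell 3.17-fold in CAL27 cells (log2 fold change -1.67 ± 0.04, SE, edgeR adjusted p = 1.37e-16) and 2.03-fold in HSC3 cells (-1.02 ± 0.09, adjusted p = 1.63e-05). Among the desmosomal genes tested it had the largest decrease in each line. PKP1 and DSC3 in CAL27 cells and PKP1 in HSC3 cells fell by over 2-fold, as did 5.11% of genes in CAL27 and 4.40% in HSC3 cells. In HSC3 cells the log2 fold change of PKP1 was -0.94 without DOX replicate 1 and -0.98 without vehicle replicate 2, under 2-fold but still past the test. The decrease was larger in CAL27 cells (interaction 0.64 ± 0.11, adjusted p = 5.16e-04).

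PKP2 (chr12:32790745-32896798, minus strand), the plakophilin of simple epithelia and heart, whose loss underlies arrhythmogenic cardiomyopathy, was at 69.0, 73.8 and 68.2 CPM with vehicle and at 122.9, 121.8 and 127.5 CPM with DOX in CAL27 cells. PKP2 in HSC3 cells was at 185.9, 187.6 and 196.4 CPM with vehicle and at 294.6, 260.2 and 264.8 CPM with DOX. All DOX libraries were above all vehicle libraries of their line, and HSC3 cells with vehicle were above CAL27 cells with DOX. PKP2 rose 1.76-fold in CAL27 cells (log2 fold change 0.82 ± 0.04, SE, edgeR adjusted p = 5.17e-12) and 1.43-fold in HSC3 cells (0.52 ± 0.06, adjusted p = 1.32e-04), or by 0.47 on the log2 scale without DOX replicate 1. The interaction was -0.29 ± 0.08 (adjusted p = 0.0142), and it was lost without CAL27 vehicle replicate 1 or 3, CAL27 DOX library 6 or HSC3 vehicle replicate 3 (adjusted p 0.0553 to 0.0646). Of the exon bases of PKP2, 4.1% are shared with another annotated gene on its strand.

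PKP3 (chr11:392614-404908, plus strand), the plakophilin with the widest epithelial expression, was at 78.8, 76.9 and 73.0 CPM with vehicle and at 87.3, 87.4 and 81.5 CPM with DOX in CAL27 cells. The groups did not overlap, and PKP3 rose by 0.16 ± 0.04 on the log2 scale (SE, edgeR adjusted p = 0.00423). This call was lost without vehicle replicate 3 (adjusted p = 0.0606) and in 1 fit over all 12 libraries (adjusted p = 0.508). The HSC3 values were 108.1, 104.4 and 90.2 CPM with vehicle and 67.6, 116.2 and 106.1 CPM with DOX, with replicate 1 far below the rest. The log2 fold change was -0.06 (95% interval -0.43 to 0.30, adjusted p = 0.829), and it was 0.14 without DOX replicate 1 (adjusted p = 0.121).

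JUP (chr17:41754604-41786931, minus strand) encodes plakoglobin, which holds desmosomal cadherin tails and is also found in adherens junctions. It was at 509.6, 468.5 and 461.5 CPM with vehicle and at 364.8, 328.8 and 343.0 CPM with DOX in CAL27 cells, and fell by 0.48 ± 0.04 on the log2 scale (SE, edgeR adjusted p = 2.16e-08). JUP in HSC3 cells was at 535.6, 517.3 and 449.2 CPM with vehicle and at 413.9, 560.9 and 547.0 CPM with DOX. The HSC3 groups overlapped, and DOX replicate 1 was again the lowest. The log2 fold change in HSC3 cells was 0.02 (95% interval -0.23 to 0.26, adjusted p = 0.942), and 0.15 without that library (adjusted p = 0.0605). The responses of the lines differed by 0.49 ± 0.14 (interaction, adjusted p = 0.0178), and by 0.64 without HSC3 DOX replicate 1.

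DSP (chr6:7541338-7586714, plus strand) encodes desmoplakin, the plakin that links the plaque to keratin filaments. It was at 1221, 1182 and 1277 CPM with vehicle and at 675.5, 708.9 and 705.9 CPM with DOX in CAL27 cells. DSP in HSC3 cells was at 1298, 1350 and 1380 CPM with vehicle and at 1204, 1214 and 1208 CPM with DOX. The groups were apart in both lines, widely in CAL27 and narrowly in HSC3 cells. DSP fell by 0.82 ± 0.04 on the log2 scale (SE, edgeR adjusted p = 3.97e-12), or 1.76-fold, in CAL27 cells. In HSC3 cells the log2 fold change of -0.16 (95% interval -0.28 to -0.04) was just outside the threshold (adjusted p = 0.0550) and passed without DOX replicate 1 (-0.15, adjusted p = 0.0152). The responses differed by 0.66 ± 0.06 (interaction, adjusted p = 4.41e-06).

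Over the 10 genes, 8 had a DOX response that differed between the lines, 6 with a higher value in HSC3 than in CAL27 cells and 2 (DSG2 and PKP2) with a lower one. Among all 20694 genes tested 8.25% were higher and 12.3% lower. The CAL27 and HSC3 responses come from separate control libraries. DSP, DSG2, PKP1, DSC2 and JUP kept an adjusted p under 0.05 in the interaction whichever library was left out, and the highest of these values was 0.0478, for JUP, which did not pass without the filter on low counts (0.0578).

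The composition of each protein class was compared as CPM per kb of exon, which allows levels of different genes to be set side by side. Plakophilin RNA was mainly PKP1 in CAL27 cells with vehicle, at 54.3% ± 1.61 of the class (SD, n = 3), and PKP1 made up 22.6% ± 0.17 with DOX. The share of PKP2 was 11.6% ± 0.71 and 27.0% ± 1.15. In HSC3 cells PKP1 went from 34.998% ± 1.16 to 18.7% ± 0.39 and PKP2 from 26.7% ± 2.36 to 42.0% ± 7.22, with DOX replicate 1 highest at 50.2%. The shares of PKP1 and of PKP2 thus did not overlap between vehicle and DOX libraries in either line. The summed plakophilin level was 59.0 ± 1.51 CPM per kb with vehicle and 44.7 ± 0.84 with DOX in CAL27 cells. It was 69.3 ± 3.90 and 64.0 ± 6.23 CPM per kb in HSC3 cells, where the ranges overlapped. By the length of the canonical transcript in place of all exons the HSC3 sums turned to 109.1 ± 4.31 with vehicle and 112.9 ± 6.22 with DOX, also with overlapping ranges.

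The DSC2 share of desmocollin RNA was 15.2% ± 0.40 with vehicle and 24.0% ± 0.87 with DOX in CAL27 cells. The same shares in HSC3 cells were 13.2% ± 0.24 and 21.8% ± 1.29. DSC3 was the major desmocollin in all 12 libraries. The summed desmocollin level was 37.6 ± 2.22 CPM per kb with vehicle and 20.4 ± 0.58 with DOX (CAL27), against 28.9 ± 0.69 with vehicle and 20.03 ± 2.47 with DOX (HSC3). Summed desmogleins were at 50.1 ± 1.66 CPM per kb with vehicle and 36.6 ± 1.10 with DOX in CAL27 cells. The HSC3 sums were 66.6 ± 2.71 with vehicle and 40.9 ± 2.98 with DOX. The ranges of vehicle and DOX libraries did not overlap in these sums. The DSG3 share of desmoglein RNA was 57.0% ± 1.23 with vehicle and 43.3% ± 2.11 with DOX (CAL27) against 39.7% ± 1.56 with vehicle and 44.9% ± 0.84 with DOX (HSC3), so it was lower with DOX in CAL27 and higher with DOX in HSC3 cells. With the length of the canonical transcript in place of all exons, DSG3 made up 44.4% in CAL27 cells with vehicle, so whether DSG3 or DSG2 was the major desmoglein there depends on the length used. By the canonical length PKP2 made up 20.5% of plakophilin RNA with vehicle and 41.1% with DOX in CAL27 cells, while its HSC3 shares were 41.3% and 57.5%.

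**Figure D3:**
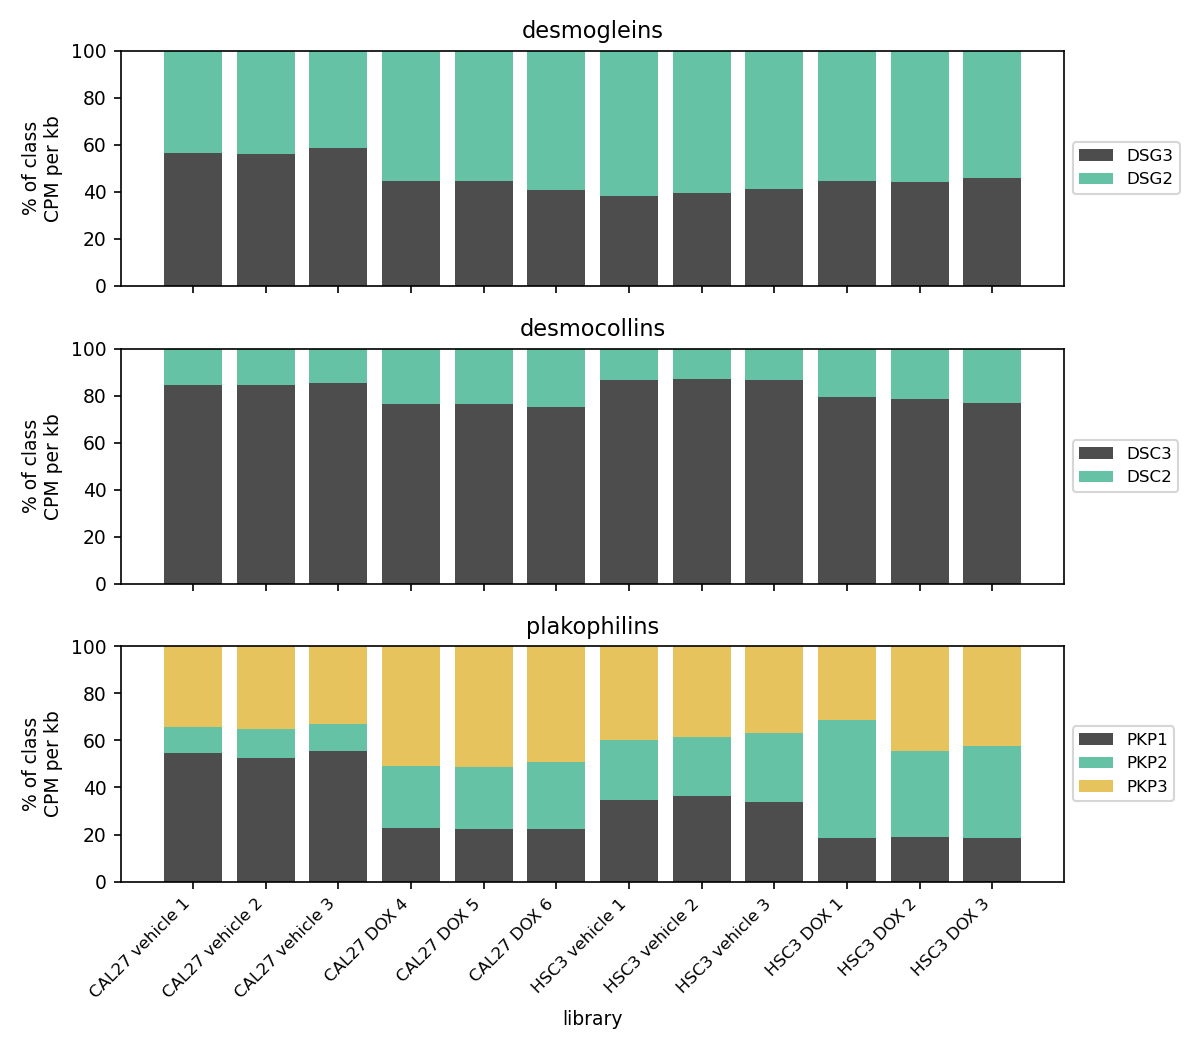
Share of each gene in the summed CPM per kb of exon of its class (y axis, percent) in each library (x axis) for desmogleins, desmocollins and plakophilins; DSG1 is below 1% and not drawn. With DOX the PKP1 share is lower in both lines, the PKP2 share is higher in both and the PKP3 share is higher in CAL27 cells. The DSC2 share is higher with DOX in both lines. A share can rise while the gene itself falls, as DSC2 did in CAL27 cells.

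Ratios of counts within a library do not depend on scaling. A ratio itself depends on the lengths of the 2 genes, but its change with DOX does not. In each line 5 ratios were compared by a two-sided exact permutation test, whose smallest possible p with 3 against 3 libraries is 0.1. The PKP1 to PKP2 ratio was 2.83 with vehicle and 0.506 with DOX in CAL27 cells. HSC3 cells had ratios of 0.793 and 0.272. The DSC3 to DSC2 ratio was 3.43 with vehicle and 1.95 with DOX (CAL27) and 4.06 with vehicle and 2.21 with DOX (HSC3). The DSG3 to DSG2 ratio was 0.781 with vehicle and 0.450 with DOX in CAL27 cells but 0.386 with vehicle and 0.480 with DOX in HSC3 cells, which is the opposite direction. In these 6 comparisons, PKP1 to PKP3 in both lines and DSP to JUP in CAL27 cells the groups did not overlap. Each reached that smallest p of 0.1 in the exact test (0.111 adjusted over 10 comparisons). With such a floor no ratio could pass the threshold used for genes, so the test cannot decide whether a ratio changed. The pairs were chosen with earlier results of these data known. How often other gene pairs separate in this way was not tested. The DSP to JUP ratio was 2.69 and 2.40 in HSC3 cells, where the groups overlapped (exact p = 0.4).

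In order of level per kb of exon, JUP and DSP were the highest in all 4 groups. JUP was at 97.1 ± 5.25 and DSP at 90.1 ± 3.54 CPM per kb in CAL27 cells with vehicle, and the ranges of the pair overlapped in every group except CAL27 DOX. PKP1, DSC3, DSG3, DSG2 and PKP3 followed, at 32.0, 31.9, 28.6, 21.5 and 20.1 CPM per kb in CAL27 cells with vehicle, with overlapping ranges only between PKP1 and DSC3. In HSC3 cells with vehicle DSG2 came next after the leading pair at 40.1 CPM per kb, and PKP3, DSG3, DSC3 and PKP1 lay between 24.3 and 26.6 with each range overlapping its neighbor. This order depends on the length used, since by canonical length DSG2 stood above DSC3 and DSG3 in CAL27 cells with vehicle (35.9 CPM per kb, against 32.4 and 28.6) and PKP2 came right after DSG2 in HSC3 cells with vehicle (44.9). With DOX, PKP1 was the lowest but for DSC2 and DSG1 in both lines, at 10.1 ± 0.24 CPM per kb in CAL27 and 11.99 ± 1.30 in HSC3 cells.

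The vehicle libraries of the lines were compared to describe the baseline. The lines were deposited in separate count tables, so the line and anything else that differed between the tables cannot be told apart in this comparison. HSC3 cells had higher PKP2, DSG2, PKP3 and DSP and lower DSC2, PKP1 and DSC3 than CAL27 cells, with 34.7% of 19410 genes higher and 37.1% lower. PKP2 was at 190.0 ± 5.60 CPM in HSC3 and 70.4 ± 3.03 CPM in CAL27 cells, 2.704-fold higher (log2 fold change 1.44 ± 0.04, SE, edgeR adjusted p = 9.57e-12), and was the only one of the 10 genes to pass with over 2-fold, as 14.2% of genes did upward. DSG2 was 1.87-fold higher (0.90 ± 0.04, adjusted p = 2.07e-10). The median log2 fold change over all genes was -0.10. DSC2, PKP1 and DSC3 had log2 fold changes of -0.59, -0.40 and -0.34. DSG3, JUP and DSG1 did not pass (adjusted p = 0.0921, 0.360 and 0.0532), though DSG3 passed with the replicate number as a block (-0.11, adjusted p = 0.0330). PKP3 and DSP had log2 fold changes of 0.41 and 0.13, but with library totals in place of TMM, which moved the median of all genes to -0.37, DSP turned to -0.14, JUP to -0.21 and PKP3 to 0.13 (adjusted p = 0.00710, 0.00615 and 0.0650). The directions of DSP and JUP at baseline thus depend on the scaling. The DSP call was also lost without CAL27 vehicle replicate 2 (0.10, adjusted p = 0.0856). Without HSC3 vehicle replicate 3, JUP, DSG3 and DSG1 passed, with log2 fold changes of 0.14, -0.17 and 1.74 (edgeR adjusted p = 0.00798, 0.00312 and 0.0292), and DSG1 also passed without HSC3 vehicle replicate 2 (1.83, adjusted p = 0.0309).

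Genes around the desmosome were read from lists of related function. The keratins that desmoplakin anchors had the largest median change of the 8 lists in each line. In CAL27 cells 11 of 15 fell and 3 rose, with a median log2 fold change of -1.72, and in HSC3 cells 7 of the 14 tested fell and 3 rose, with a median of -0.99. KRT14, the basal partner of KRT5, fell by 2.90 ± 0.06 on the log2 scale (SE, edgeR adjusted p = 2.59e-14) in CAL27 and by 1.88 ± 0.12 (adjusted p = 1.24e-06) in HSC3 cells. KRT13 and KRT15 fell by 3.37 and 2.28 in CAL27 cells. In HSC3 cells KRT15 fell by 0.98, and KRT13, at few counts, did not pass (-1.10, adjusted p = 0.345). KRT16, a keratin of wounded epidermis, fell by 1.83 in HSC3 cells and by 2.25 in CAL27 cells. KRT8, which pairs with KRT18 in simple epithelia, rose by 1.47 ± 0.12 (adjusted p = 7.72e-06) in HSC3 cells and by 1.45 in CAL27 cells, and KRT18 rose with it in both lines (1.26 in CAL27 and 1.15 in HSC3).

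Of 5 other desmosome genes, 3 were tested in CAL27 cells, where PKP4 rose (0.14) and PERP, a p63 target of the desmosome membrane, fell (-0.21). In HSC3 cells 4 were tested and 0 passed by edgeR (1 at an unadjusted p under 0.05, and 1 by DESeq2), and PERP and PKP4 had log2 fold changes of -0.09 and 0.02. At baseline PERP was higher (0.39) and PKP4 lower (-0.28) in HSC3 cells. Of 8 plakin and cornified envelope genes, 3 of the 6 tested fell and 1 rose in CAL27 cells (median -0.20), and all 5 tested fell in HSC3 cells (median -0.64). At baseline CSTA, an envelope protease inhibitor, was higher (1.44) and periplakin (PPL) lower (-1.26) in HSC3 cells.

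Junctions of other kinds did not follow a single direction. Of 10 adherens junction genes 5 fell and 3 rose in CAL27 cells (median -0.07), and 3 fell and 3 rose in HSC3 cells (median 0.06). CDH1 (E-cadherin) had log2 fold changes of 0.03 (adjusted p = 0.517) and -0.02 (adjusted p = 0.865). At baseline CDH2, NECTIN4 and CTNND1 were lower in HSC3 cells by log2 fold changes of -4.55, -2.65 and -2.30. Of 9 hemidesmosome genes, which hold the cell to its basement membrane, 5 rose and 3 fell in CAL27 cells (median 0.22), and 5 fell in HSC3 cells (median -0.20). In HSC3 cells 0 of the hemidesmosome genes rose by edgeR, also at an unadjusted p under 0.05 or by DESeq2. At baseline 8 of the 9 were higher in HSC3 cells, among them LAMA3 and COL17A1 with log2 fold changes of 3.24 and 2.04.

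Of 9 proteases and inhibitors that act on desmosomal proteins, 4 rose and 3 fell in CAL27 cells (median 0.22) and 2 rose and 3 fell in HSC3 cells (median -0.12). KLK5, a kallikrein that cleaves desmosomal cadherins in shedding skin, fell by 2.00 ± 0.11 on the log2 scale in HSC3 cells (SE, edgeR adjusted p = 5.20e-07), and the cathepsin CTSV fell by 2.20. Of 10 transcription factors of squamous junction genes, 5 fell and 1 rose in CAL27 cells (median -0.45) and 2 fell and 1 rose in HSC3 cells (median 0.06). TP63, a master regulator of stratified epithelium, fell by 1.01 ± 0.04 (adjusted p = 9.44e-14) in CAL27 and by 1.21 ± 0.06 (adjusted p = 1.94e-07) in HSC3 cells. ZNF750 and KLF5 fell by 1.96 and 1.09 in CAL27 cells. In HSC3 cells KLF5 fell by 0.97, and ZNF750, at few counts, did not pass (-1.52, adjusted p = 0.193). Of 8 mesenchymal genes, 1 of the 7 tested rose in each line (ZEB1 in CAL27, and FN1 with a log2 fold change of 2.22 in HSC3 cells). The call of ZEB1 was marginal (adjusted p = 0.0488, and up to 0.237 under the alternatives), and by DESeq2 0 of these genes were higher in CAL27 and 2 in HSC3 cells. By edgeR 0 fell, with 0 in CAL27 and 2 in HSC3 cells lower at an unadjusted p under 0.05, and 0 in each by DESeq2. VIM (vimentin) was at 0.210 to 0.323 CPM in CAL27 and at 351.7 to 363.5 CPM in HSC3 cells with vehicle (log2 fold change 10.44). Many keratins, TP63 and some squamous markers also changed with DOX, not all in the same direction. Their part in the changes of the desmosomal genes was not tested.

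**Figure D4:**
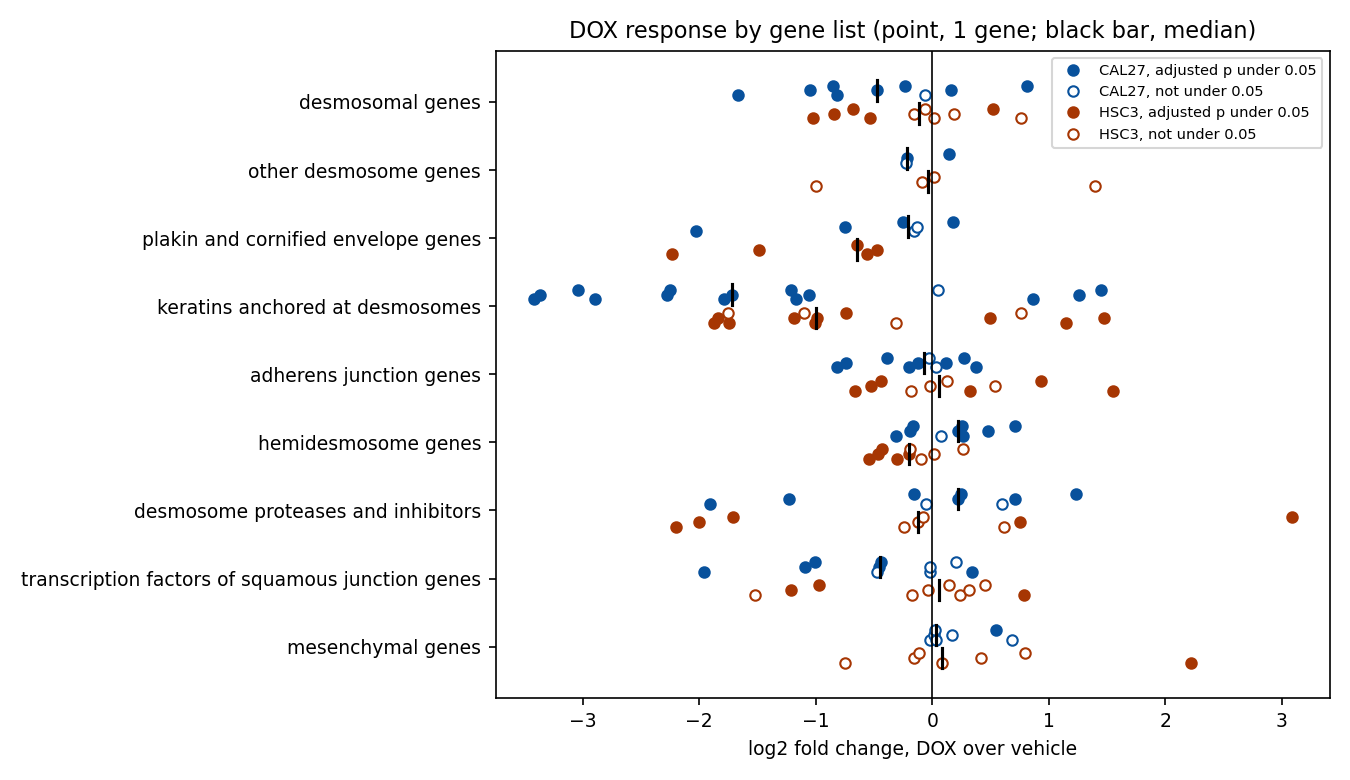
Log2 fold change with DOX (x axis) of each tested gene of the desmosomal genes and of 8 lists of related genes (y axis), in CAL27 (upper row) and HSC3 cells (lower row). Filled points have an adjusted p under 0.05 and black bars are medians; the keratins spread furthest, with medians of -1.72 and -0.99, against -0.48 and -0.11 for the desmosomal genes.

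The genes whose levels over the 12 libraries were most like those of each desmosomal gene were ranked by Pearson's r of log2 CPM among 9234 genes. The libraries fall into 4 groups, so r mainly describes how group levels line up. For PKP1 the closest were TRIM29, KRT16 and LINC00511 (r = 0.987, 0.981 and 0.981), and for PKP2 they were PRKAR2A, GFOD1 and FERMT2 (r = 0.999, 0.996 and 0.995). The closest to DSC3 was BCL11B (r = 0.991), to DSG3 SCD (0.979), to DSG2 BUB3 (0.996) and to DSC2 FAM117A (0.981). For PKP3, JUP and DSP the closest were RAB35 (0.980), DDR1 (0.981) and WNT10A (0.980). No desmosomal gene was among the 3 closest of another.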

How the data were processed

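Each group had 3 cultures, whose Trizol-extracted RNA was made into poly(A) libraries (TruSeq Stranded mRNA). The submitters' processing notes name FastQC 0.11.9, STAR 2.7.9a, Subread 2.0.1, featureCounts and GRCh38. The authors deposited 1 table of whole-number read counts by gene symbol for each line, not normalized. The gene annotation and strand setting of the counting are not given in the sources used here, so reads of a gene and an antisense partner cannot be told apart. Antisense exons cover 4.6% of DSG1, 2.0% of DSG2 and 0.6% of DSP exons. Columns of the CAL27 DOX libraries are numbered 4 to 6, the samples 1 to 3, so these were assigned by group alone.

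Counts were analysed with R 4.3.3 and edgeR 4.0.16 (TMM, filterByExpr with a minimum count of 10, robust glmQLFit, glmQLFTest). The filter kept 9, 10, 10 and 10 desmosomal genes in CAL27, HSC3, baseline and interaction fits. DESeq2 1.42.0, other scalings, no filter, counts divided by an estimate of counts per molecule, a replicate block, 1 fit over 12 libraries and leaving out each library were alternatives. Fits were tested on simulated data. The estimate of counts per molecule rests on the share of genes, expected at 8 to 16 counts, that had none. Ratios were tested with SciPy 1.17.1. edgeR's p-values set a difference against the spread between the cultures of a group, which is estimated with help from other genes. They do not cover the spread between different shRNAs. Libraries summed to 89730914 to 169065103 counts, and replicates of a group had equal counts at 0.65% to 3.34% of genes, so none was a copy of another.

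The desmosomal genes, the lists and the tests were chosen with earlier results of these data known. Named are all 10 desmosomal genes and MUC1, up to 3 genes per list and comparison with the largest change among those past adjusted p under 0.05 and a log2 fold change of 1 whose mean log2 CPM was not under 3, and the 3 genes most like each desmosomal gene. Some list genes that meet this rule are counted but not reported here by name. Other list genes in the text were named after their values were seen. Gene positions are from the GENCODE annotation of GRCh38, upstream sequences from RefSeq (GRCh38.p14).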

Additional observations from a re-analysis of the deposited data

Results flagged for a closer look

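These values are differences between the DOX responses of the lines (HSC3 minus CAL27, log2 scale), each past an adjusted p under 0.05 in edgeR's interaction test over 12 libraries. Among desmosomal genes they were -0.7813 for DSG2, 0.3226 for DSG3, 0.4192 for DSC2, 0.3648 for DSC3, 0.6449 for PKP1, -0.2937 for PKP2, 0.4927 for JUP and 0.664 for DSP. DSG2 fell in HSC3 cells alone by the test within each line, and JUP and DSC2 fell in CAL27 cells alone. DSP fell in CAL27 cells, and its decrease in HSC3 cells (log2 fold change -0.16) just missed the threshold (edgeR adjusted p = 0.055). This DSP decrease passed without HSC3 DOX replicate 1 (adjusted p = 0.0152). In HSC3 cells 5 desmosomal genes were lower with DOX by DESeq2, against 4 by edgeR. The difference between the responses was 1.3604 for MUC1, whose level in HSC3 cells with DOX rests on 16 to 46 counts per library. This MUC1 difference did not pass with counts divided by the estimate of counts per molecule (1.33, adjusted p = 0.0546).

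Among listed genes the difference was 1.022 for KRT14 and 1.293 for KRT15, which fell in both lines and by less in HSC3 cells. It was 2.2959 for KRT19, which fell in CAL27 and rose in HSC3 cells. KRT19 had only 31 to 52 counts per library in CAL27 cells with DOX. In HSC3 cells its vehicle and DOX groups overlapped, and the rise did not pass under every alternative. It was 2.3665 for NECTIN4 and 1.1385 for CTNND1, both of which fell in CAL27 cells and rose in HSC3 cells. It was -2.2461 for KLK5 and -2.4248 for CTSV, which rose in CAL27 cells and fell in HSC3 cells, and 2.1967 for FN1, which rose in HSC3 cells.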

How the results depend on the processing

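The calls of PKP1, DSC3, DSG3 and PKP2 with DOX in both lines, of DSP, JUP and DSC2 in CAL27 and of DSG2 in HSC3 cells kept their direction and passed under every alternative run. In 1 fit over 12 libraries 1 desmosomal gene rose in CAL27 (2746 genes higher and 2337 lower in all) and 2 in HSC3 cells. With library totals, 2 desmosomal genes were higher and 6 lower at baseline, JUP was at -0.21 and DSP at -0.14 there, and JUP with DOX in HSC3 cells was at -0.0077. Leaving out 1 library at a time, 1 to 2 desmosomal genes rose and 6 to 7 fell in CAL27 cells (3537 to 4660 and 3787 to 4341 of all genes), and 1 rose and 4 to 5 fell in HSC3 cells (1514 to 3268 and 2049 to 3601). At baseline 3 to 6 were higher and 3 to 4 lower (6297 to 6923 and 6621 to 7595 of all genes), and in the interaction 4 to 7 were higher and 1 to 2 lower (1336 to 2614 and 1947 to 3233). DSG2 did not pass in any CAL27 fit that left out 1 library (edgeR adjusted p 0.144 to 0.489). The additional gene that fell in CAL27 cells was therefore DSG1, on at most 17 counts per library. The lowest count of all genes that rose in HSC3 cells was without vehicle replicate 2, and the highest interaction count was without HSC3 DOX replicate 1. In HSC3 cells JUP ranged from -0.065 to 0.147 and PKP3 from -0.222 to 0.141 on the log2 scale. The cause of these shifts was not tested.

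With the replicate number as a block, 1 desmosomal gene rose and 4 fell in HSC3 cells, 4 were higher and 4 lower at baseline, where DSG3 passed at -0.114 (adjusted p = 0.0330), and no other desmosomal call changed. The labels link these samples by number alone. The deviations of same-numbered libraries correlated at -0.191, 0.336 and -0.327 in HSC3 cells. Between vehicle libraries of the lines they correlated at 0.099, 0.139 and 0.196, and each correlated best with its own number. What same-numbered vehicle libraries share was not tested. A blocked fit was not run for CAL27 cells or the interaction, whose DOX columns carry no replicate number of their own. DSG1 had at most 78 counts in a library.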
